A study of Bos taurus with 20 samples.

Results

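The comparison is of longissimus dorsi muscle (the long muscle of the loin) in Wagyu by Hereford cattle at 20, 25 and 30 months of age against the same cross at 3, 7 and 12 months. The labels give the ages only, and the names fattening (20 to 30 months) and growing (3 to 12 months) are used here for the 2 periods. These are 6 of the 20 columns of a deposited table that also holds fetal ages of this cross and the same ages of a Piedmontese by Hereford cross. Total RNA was run on two-colour Agilent arrays, and each postnatal column stands for 4 animals of 1 cross and age, so that 24 animal-by-age samples lie behind the 6 Wagyu columns. The animals within a column were already combined, so the ages served as the samples of a period and the spread within a period includes change with age. The labels do not state the sex of the animals or whether an animal was sampled more than once.

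Wagyu cattle are known for fat laid down inside the muscle. That fat sits in adipocytes between the fibres, cells that take up or make fatty acids, join them to glycerol and store them in droplets coated by perilipins and proteins of the CIDE family. Ruminant adipocytes build most of their fatty acids from acetate, and a desaturase turns the saturated products into oleic acid. Muscle fibres also hold small droplets and burn fatty acids in mitochondria, and they draw more on this fuel during fasting.

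The values are log2 intensities on the deposited scale, and every difference is in log2 units of that scale, as the mean of the 3 fattening ages minus the mean of the 3 growing ages unless stated otherwise. The value after ± gives limma's standard error for that difference. Medians of the 6 Wagyu columns lay between 6.07 and 6.38, and correlations between them, across rows that are not independent, ran from 0.985 to 0.994. All 9 measured muscle fibre markers were high at every age. ACTA1 (skeletal actin) read 19.85, 19.79 and 19.57 at the fattening ages, against 19.55 to 20.01 at the growing ages, and 0 of the 9 separated the periods. Columns of 3 to 20 months lay on the same 4 slides and those of 25 and 30 months on 2 others, so 20 months against the growing ages was within slides, while 25 and 30 months against them also compared slides.

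With 6 columns few rows passed limma's test. Of 21475 rows 3 passed at an adjusted p under 0.05, which is 0.014%, and 3126 had an unadjusted p under that value, 2661 of them higher at the fattening ages. Most of the results below are therefore given by whether all 3 fattening values lay on 1 side of all 3 growing values, read against the share of all 11329 genes that did so. By that measure 12.0% of genes were higher at the fattening ages and 4.11% lower, and the median difference of all genes was 0.16. After quantile normalisation, which brought that median near 0, the shares were 9.36% and 8.69%. For 20 months alone, 16.0% of genes lay above all 3 growing ages and 30.9% below them.

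One of the 3 rows that passed was SOCS2, which encodes an inhibitor of growth hormone signalling. SOCS2 read 8.51, 7.51 and 7.39 at 20, 25 and 30 months, against 11.11, 11.34 and 10.86 at 3, 7 and 12 months. The periods lay more than 2 log2 units apart at their nearest values, and SOCS2 fell by 3.30 ± 0.31 (limma adjusted p = 0.017). MOB3B, an adaptor of the MOB family, read 8.22, 8.16 and 7.89 at the fattening ages, against 10.12, 9.76 and 9.92 at the growing ages. It fell by 1.84 ± 0.22 (adjusted p = 0.049). The third was a row without a gene name, at 7.33, 9.07 and 7.73, against 4.31, 5.04 and 4.46 (3.44 ± 0.41, adjusted p = 0.049). In the Piedmontese cross at the same ages SOCS2, MOB3B and the unnamed row differed by −2.62, −2.02 and 2.46, each without overlap. Leaving out 1 age ended most of the calls in the Wagyu cross. SOCS2 had adjusted p = 0.19, 0.12, 0.055 and 0.097 without 3, 7, 12 or 30 months, and MOB3B stayed under 0.05 only without 20 months. Over all alternatives the adjusted p ran between 0.00034 and 0.19 for SOCS2 and between 0.0028 and 0.81 for MOB3B. With the slide set as a term, which leaves 20 months against the growing ages, SOCS2 stood at −2.60 (adjusted p = 0.14) and MOB3B at −1.71 (adjusted p = 0.81). Just outside the threshold were PRUNE2 at 2.51 and CBLN4 at −1.69 (both adjusted p = 0.057), and SCD at 3.86 (adjusted p = 0.07).

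Fat cell genes had the highest values late in life. Of 14 measured genes of adipocyte identity, 8 were higher at every fattening age than at any growing age and 0 were lower. Among all genes these shares were 12.0% and 4.11%. The median difference of the list was 2.21, against 0.16 for all genes, and 0 members passed limma's test. In these bulk samples more adipocytes and more RNA per adipocyte cannot be told apart.

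**Figure D1:**
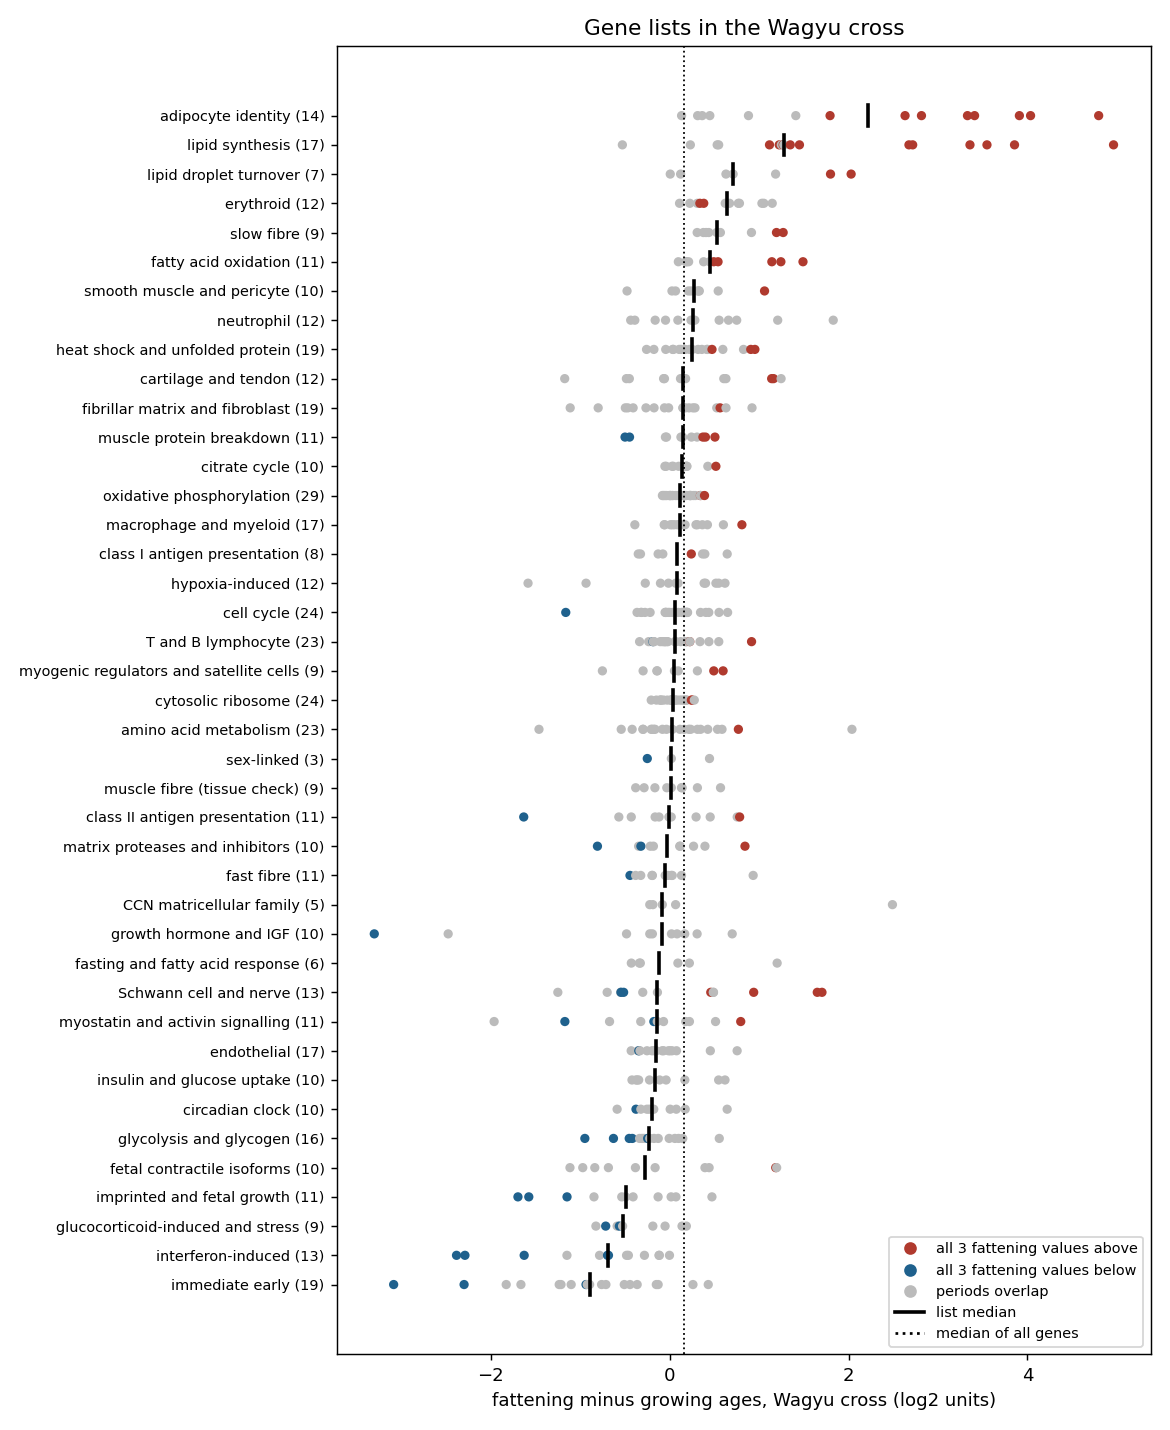
Difference between the fattening and growing ages of the Wagyu cross (log2 units, horizontal axis) for each measured gene of 41 lists, 1 list per line with its number of genes, ordered by the median. Red points had all 3 fattening values above the 3 growing values and blue points all 3 below; black bars are list medians and the dotted line is the median of all genes, 0.16. Adipocyte identity and lipid synthesis lie highest, with medians of 2.21 and 1.28, and immediate early genes lowest, at −0.89.

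CIDEC, a protein that fuses lipid droplets in adipocytes, read 12.63, 15.28 and 15.24 at 20, 25 and 30 months, against 8.50, 11.05 and 9.22 at 3, 7 and 12 months. All fattening values were above the 7-month value, the highest of the growing ages, and the difference was 4.80 ± 0.75 (limma adjusted p = 0.08). FABP4, the fatty acid carrier of adipocytes, read 11.78, 14.21 and 14.52, against 8.44, 10.87 and 9.08 (4.04 ± 0.74, adjusted p = 0.11). TRARG1, a protein of the vesicles that carry the insulin-responsive glucose transporter, read 9.48, 11.75 and 12.37, against 6.57, 8.58 and 6.71 (3.91 ± 0.71). In each of these genes the 20-month column stood between the growing ages and the last 2 ages.

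The same order held in the other separated members of the list. PCK1, which in adipocytes makes the glycerol backbone of stored fat, read 7.35, 9.41 and 8.65 at the fattening ages, against 4.12, 6.02 and 5.04 at the growing ages (3.41 ± 0.55, adjusted p = 0.087). ADIPOQ, the hormone adiponectin, read 7.52, 9.55 and 9.92, against 4.67, 7.37 and 4.97 (3.33 ± 0.74). PLIN1, the main droplet coat protein of adipocytes, read 8.27, 10.35 and 11.03, against 6.27, 8.19 and 6.73 (2.82 ± 0.67). For both of these genes the 20-month value was close to that of 7 months. CIDEA, a relative of CIDEC, stood at 2.63 ± 0.58, and AGPAT2, an acyltransferase of triglyceride synthesis, at 1.79 ± 0.38.

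The 6 members whose periods overlapped were of several kinds. PPARG, the transcription factor that directs adipocyte formation, read 7.00 at 20 months, inside its growing range of 6.89 to 7.15, and 8.12 and 8.53 at 25 and 30 months. RBP4, a retinol carrier secreted by adipocytes and liver, likewise read 10.34, then 12.02 and 12.03, against 9.76 to 10.60 at the growing ages. LPL, the lipase that frees fatty acids from blood lipoproteins and is also made by muscle fibres, differed by 0.13 ± 0.33. LEP (leptin), CFD (adipsin) and CEBPA, a partner of PPARG, differed by 0.36, 0.45 and 0.31, though the other row of CEBPA stood at 1.73.

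Within the slides shared with the growing ages, 10 of the 14 genes were higher at 20 months than at every growing age and 1 was lower. Among all genes these shares were 16.0% and 30.9%. That comparison rests on 1 column at 20 months, whose own spread is not known. The median of the list at 20 months minus the growing ages was 1.10, against −0.08 for all genes. At 25 and 30 months it was 2.76, against 0.26. With the 20-month column left out of the fit, so that period and slides cannot be told apart, 10 of the 14 passed limma's test as higher and 0 as lower, where 6.95% of all genes passed as higher and 0.397% as lower. A fit of both crosses with the ages as fixed levels, added after the data were seen, passed 11 of the 14 as higher, where 18.4% of genes passed as higher and 3.93% as lower. Its error is the disagreement of the crosses within a period and leaves out noise that both share on an array, so its p-values may be too small.

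Enzymes and regulators of lipid synthesis followed. Of 17 measured genes 11 were higher at every fattening age than at any growing age and 0 were lower, with a median difference of 1.28. Among all genes these shares were 12.0% and 4.11%. Without the 20-month column 13 of the 17 passed limma's test as higher, where 6.95% of all genes did. Period and slides cannot be told apart in that fit. The fit with fixed ages, whose p-values may be too small, passed 15 as higher and 1 as lower. It passed 18.4% of all genes as higher and 3.93% as lower. At 20 months alone, again 1 column, 11 of the 17 were above every growing age and 1 below, where 16.0% and 30.9% of all genes were.

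THRSP, a regulator of fat synthesis, had the largest difference of any gene. It read 8.12, 11.75 and 10.49 at the fattening ages, against 4.65, 6.07 and 4.75 at the growing ages (4.96 ± 0.75, limma adjusted p = 0.08). SCD, the desaturase that makes oleic acid, read 15.04, 17.51 and 16.58, against 12.17, 13.34 and 12.05 (3.86 ± 0.56), and its other row differed by as much. FASN, the fatty acid synthase, read 8.45, 11.05 and 10.05, against 7.06, 7.82 and 6.65 (2.68 ± 0.56), while the lowest of its 3 rows differed by 0.58. All 3 genes were highest at 25 months.

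Genes that supply or extend the chain behaved likewise. ELOVL6, an elongase of long chains, read 7.96, 11.16 and 9.66 at the fattening ages, against 6.10, 7.22 and 5.38 at the growing ages (3.36 ± 0.70). ACSS2, which activates acetate, read 12.88, 14.84 and 13.84, against 12.46, 12.66 and 12.65 (1.27 ± 0.41), so that its 20-month value was only just above the growing ages. ME1 and SLC25A1, which supply NADPH and export citrate from mitochondria, differed by 1.45 ± 0.27 and 1.23 ± 0.34. ACLY, which splits that citrate into acetyl-CoA, overlapped between periods, at 10.20, 12.42 and 11.14, against 10.22, 10.08 and 9.63.

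DGAT2, which completes triglyceride synthesis, read 11.34, 13.81 and 12.98 at the fattening ages, against 9.97, 10.26 and 9.74 at the growing ages (2.72 ± 0.51). DGAT1, the other enzyme of that step, overlapped between periods at 0.53 ± 0.30. ACSM1, an acyl-CoA synthetase, stood at 3.55 ± 0.79. Of the regulators, SREBF1 (a transcription factor of lipid synthesis) differed by 1.35 ± 0.32, INSIG1 (which holds it in the endoplasmic reticulum) by 1.12 ± 0.43, and MLXIPL (the carbohydrate-sensing factor) overlapped at 0.23 ± 0.30. FADS2, a desaturase of polyunsaturated fatty acids, was the 1 member with a negative difference, at −0.53 ± 0.36.

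**Figure D2:**
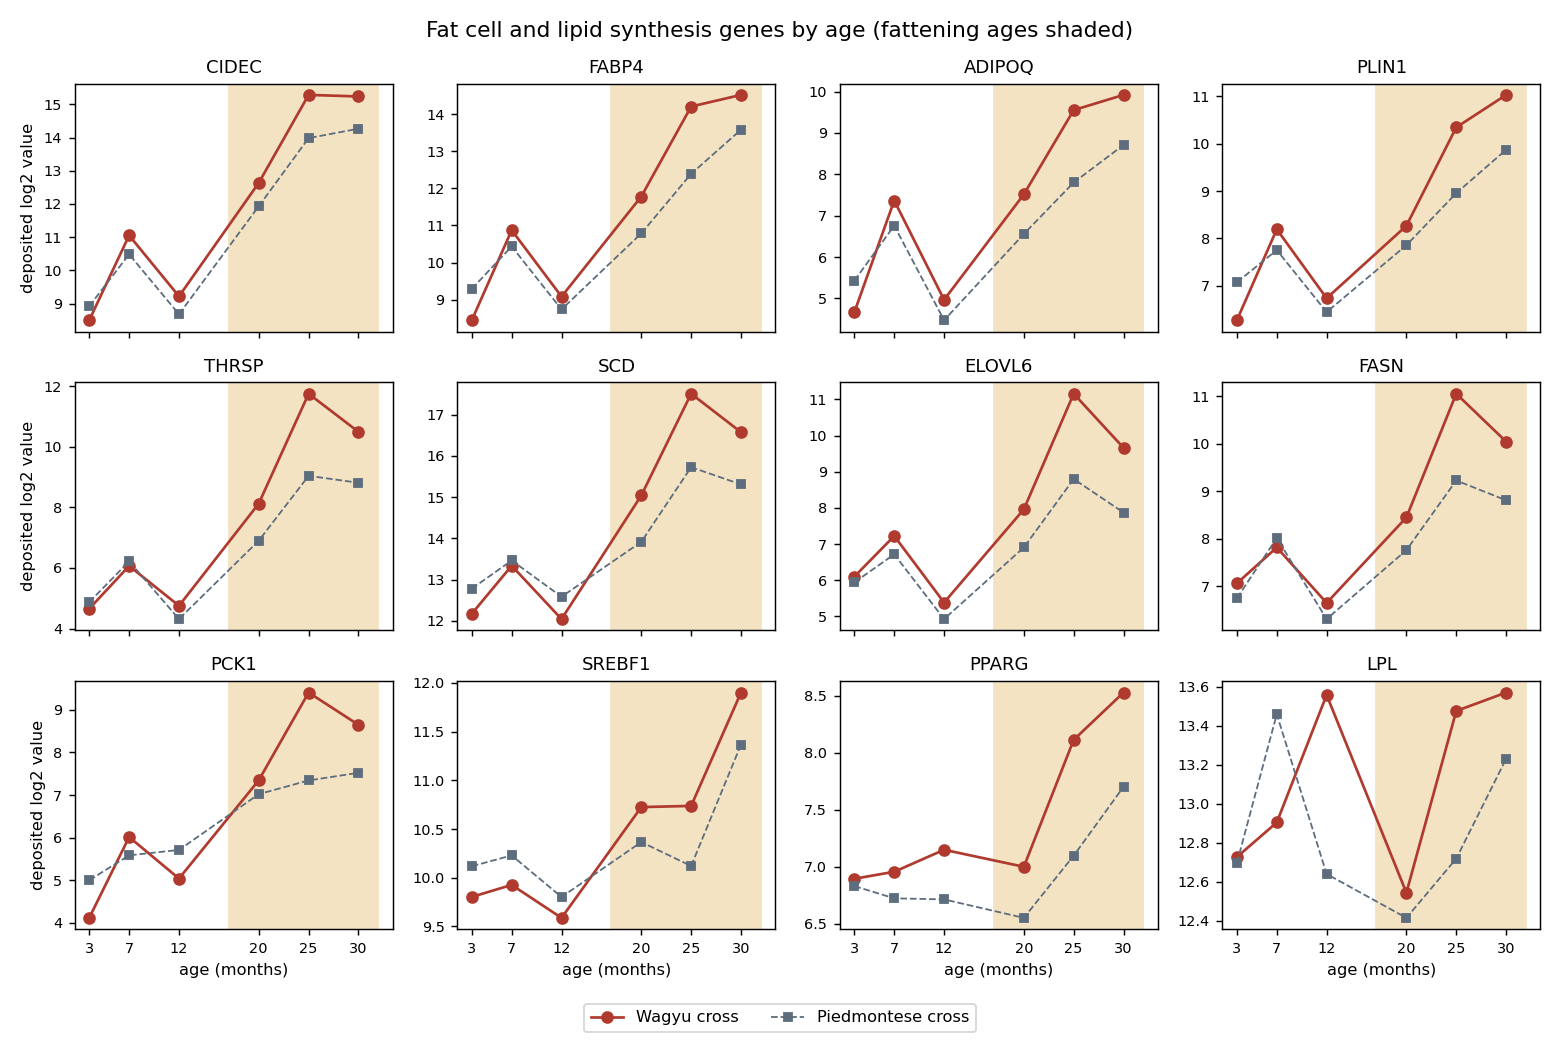
Deposited log2 values by age in months for 12 fat cell and lipid synthesis genes, with the Wagyu cross as red circles and the Piedmontese cross as grey squares; the fattening ages are shaded, each point is 1 column of 4 animals and the vertical scales differ. In the Wagyu cross CIDEC reached 15.28 at 25 months and SCD 17.51, while LPL at 20 months, 12.54, lay below its growing values.

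The growing ages were not a flat baseline for these genes. In 9 of the 14 adipocyte genes and 10 of the 17 lipid synthesis genes the 7-month value was above both the 3-month and the 12-month value, as it was in 18.5% of all genes. ADIPOQ was 2.70 higher at 7 than at 3 months and CIDEC 2.55 higher. The mean level of the adipocyte list at 3, 7, 12, 20, 25 and 30 months was 8.89, 10.09, 9.42, 10.59, 12.13 and 12.16.

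The last 2 ages, which shared slides, are given as 1 column against 1 column, with no test. Of the 17 lipid synthesis genes 11 had their highest value of the 6 ages at 25 months, as had 21.6% of all genes, and the other 6 had it at 30 months. The median of 30 minus 25 months was −0.55 in that list, against 0.08 for all genes. ELOVL6 was at −1.50, ACLY at −1.27, THRSP at −1.26, FASN at −1.01 and SCD at −0.93. SREBF1 and ACSM1, at 1.16 and 1.22, ran the other way.

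Lipid droplet turnover, a list of lipases, their regulators and droplet coat proteins, had all 7 measured genes highest at 30 months, as had 41.6% of all genes, with a median of 1.07 for 30 minus 25 months in each cross. LIPE, the hormone-sensitive lipase, read 7.50, 8.01 and 10.04 at the fattening ages, against 7.76, 7.35 and 6.88 at the growing ages. PLIN2, the droplet coat protein of most cell types, read 7.79, 8.42 and 10.80, against 7.30, 7.13 and 7.18 (1.80 ± 0.61). MGLL, which cleaves the last fatty acid from glycerol, read 13.34, 13.88 and 15.14, against 13.35, 13.43 and 13.46. In all 3 genes the 30-month column stood more than 1 above every other age. Over the periods only PLIN2 and G0S2 (an inhibitor of the first lipase, 2.03 ± 0.51) were separated, both higher, as were 12.0% of all genes.

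Fatty acid oxidation had 5 of 11 measured genes higher at every fattening age and 0 lower, where 12.0% and 4.11% of all genes were. The median difference was 0.45, and 8 of the 11 were highest at 30 months, where 41.6% of all genes were. The median of 30 minus 25 months was 0.64 in the Wagyu cross and 0.96 in the Piedmontese cross. FABP3, the fatty acid carrier of muscle fibres, read 15.59, 16.04 and 17.19 at the fattening ages, against 14.98, 14.74 and 14.63 at the growing ages (1.49 ± 0.36). CPT2, an enzyme of fatty acid import into mitochondria, stood at 1.14 ± 0.31 and ACADL, a dehydrogenase of long chains, at 1.24 ± 0.32. CPT1B, the rate-limiting step of import in muscle, overlapped between periods and read 15.19 at 30 months, against 13.88 to 14.36 at the other 5 ages.

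Genes known to respond to fasting swung widely inside each period. PDK4, a kinase that restrains glucose oxidation, read 12.32, 10.36 and 16.43 at the fattening ages, against 15.92, 13.22 and 11.25 at the growing ages. Its range was 6.07 within the fattening ages and 4.67 within the growing ages, against −0.43 ± 1.42 between the periods. UCP3, a mitochondrial carrier of muscle, read 14.48, 14.31 and 17.03, against 16.02, 14.98 and 14.16. ANGPTL4, a secreted inhibitor of LPL, read 13.94, 11.89 and 15.38, against 13.28, 11.48 and 12.84. None of the 6 measured genes of this list was separated, and 3 of the 6 were highest at 30 months, close to the 41.6% of all genes. The median of 30 minus 25 months in the list was 1.44 in the Wagyu cross and 1.38 in the Piedmontese cross. PDK4, UCP3 and ANGPTL4 were thus high in the same column as the droplet turnover and oxidation genes above, and the part of feeding state in either was not tested.

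**Figure D3:**
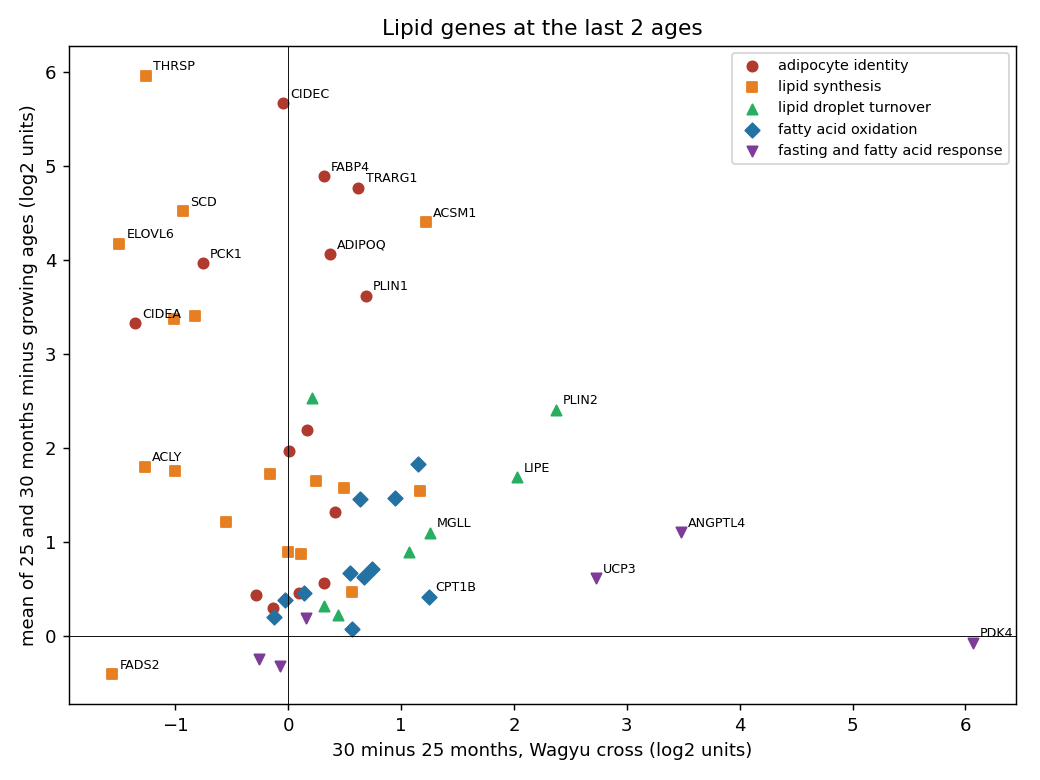
Each point is a gene of 5 lipid lists in the Wagyu cross, placed by its value at 30 minus 25 months (horizontal, log2 units) and by the mean of 25 and 30 months minus the growing ages (vertical, log2 units). THRSP, SCD and ELOVL6 lie to the upper left, at −1.26, −0.93 and −1.50 for 30 minus 25 months, and PLIN2, LIPE, ANGPTL4, UCP3 and PDK4 to the right, at 2.37, 2.02, 3.48, 2.73 and 6.07.

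The Piedmontese cross was measured at the same ages. Both crosses of an age were on the same 4 arrays, so a slide effect of equal size in both cancels in the Wagyu minus Piedmontese value. An effect of unequal size would remain, and its part was not tested. The change of the Wagyu minus Piedmontese value between the periods was tested. By limma 0 of 21475 rows passed, which is 0.0%, with 2451 at an unadjusted p under 0.05. The smallest adjusted p was 0.44, and 0 rows passed in any alternative fit.

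Adipocyte genes differed by a median of 2.21 in the Wagyu cross and 1.08 in the Piedmontese cross, and lipid synthesis genes by 1.28 and 0.57, where all genes had 0.16 and −0.09. The Wagyu minus Piedmontese value was higher at every fattening age than at any growing age in 8 of 14 adipocyte genes and 11 of 17 lipid synthesis genes. It was so in 22.6% of all genes, and lower without overlap in 0.256%. As deposited the median gene itself shifted by 0.25 in this measure. After quantile normalisation that shift was near 0, and 5 of 14 and 10 of 17 genes were separated, against 4.64% of all genes.

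SCD had 1.82 ± 0.23 for the Wagyu change minus the Piedmontese change (limma adjusted p = 0.44), and 1.55 after quantile normalisation. Its Wagyu minus Piedmontese value was positive at each fattening age and negative at each growing age. THRSP stood at 1.85 ± 0.36, ELOVL6 at 1.36 ± 0.31 and INSIG1 at 1.24 ± 0.28. INSIG1 differed between the periods by 1.12 in the Wagyu cross and by −0.13 in the Piedmontese cross. CIDEC, at 0.76 ± 0.29, differed by 4.80 in the Wagyu cross and 4.03 in the Piedmontese cross.

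The gap between the crosses was widest at 25 months. The median Wagyu minus Piedmontese value of the adipocyte list at 3, 7, 12, 20, 25 and 30 months was −0.44, 0.10, 0.37, 0.43, 1.26 and 0.81, and that of the lipid synthesis list −0.05, −0.09, 0.26, 0.55, 1.45 and 0.63. For all genes it ran between −0.23 and 0.20. For lipid synthesis the median of 30 minus 25 months was −0.55 in the Wagyu cross and 0.19 in the Piedmontese cross. For all genes it was 0.08 and 0.20, so the Piedmontese value was close to that of all genes. The droplet turnover, oxidation and fasting lists had medians above those of all genes in both crosses.

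**Figure D4:**
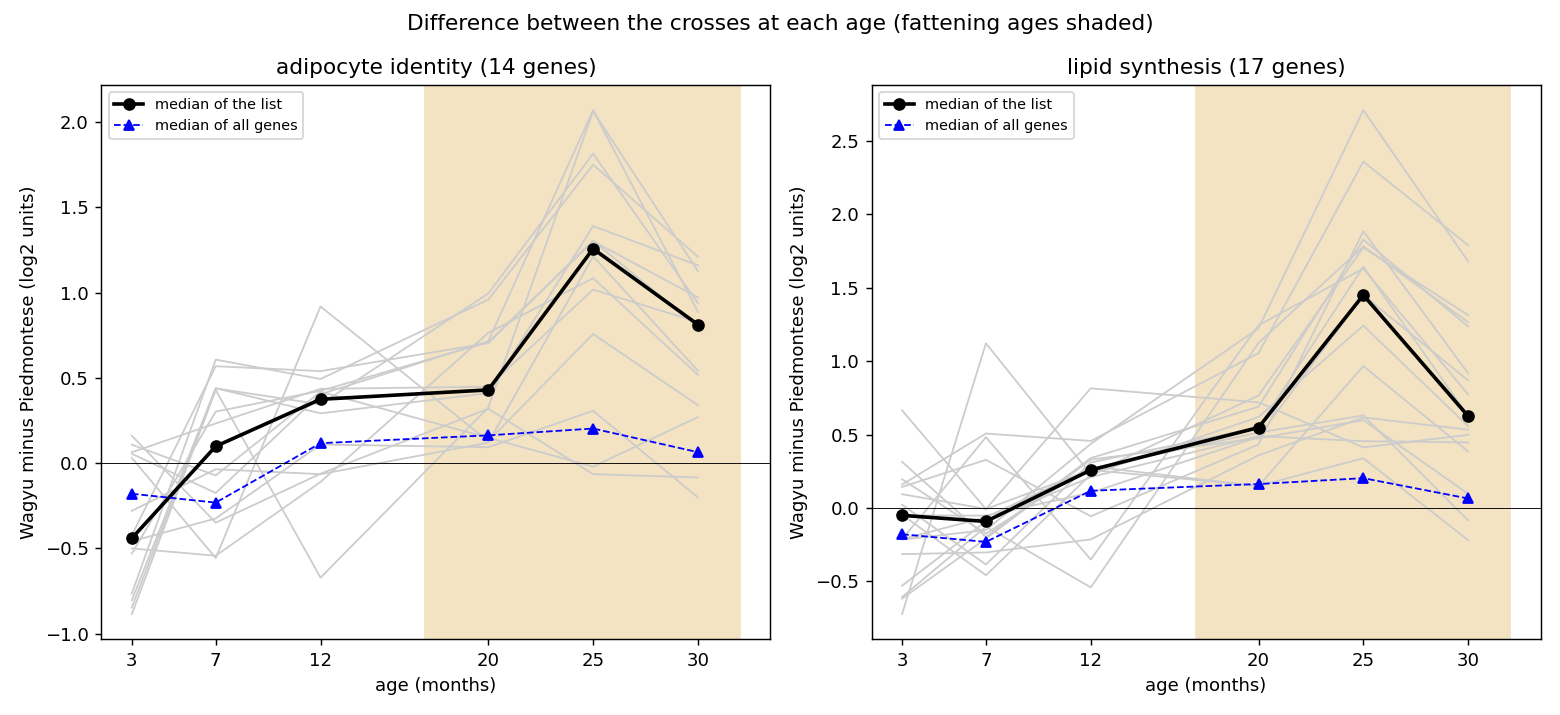
Wagyu minus Piedmontese difference (log2 units) by age in months for the 14 adipocyte identity genes and the 17 lipid synthesis genes, with grey lines for single genes, black circles for the list median and blue triangles for the median of all genes; fattening ages are shaded. The list medians reach 1.26 and 1.45 at 25 months, when the median of all genes is 0.20.

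Oxidation and slow fibre genes were also set against the Piedmontese cross. The fatty acid oxidation list differed between periods by a median of 0.45 in the Wagyu cross and −0.02 in the Piedmontese cross. In the Wagyu minus Piedmontese value 8 of its 11 genes were higher without overlap and 0 lower, where 22.6% and 0.256% of all genes were. The median change of the list in that value was 0.45, against 0.25 for all genes. After quantile normalisation it was 0.20, against a median near 0 for all genes. All 9 measured slow fibre genes had a positive difference in the Wagyu cross, as had 7799 of all 11329 genes. The list median was 0.53, where the Piedmontese cross had 0.22. Of the 9, 2 were higher without overlap, where 12.0% of all genes were. In the Wagyu minus Piedmontese value 1 of the 9 was separated, below the 22.6% of all genes. CSRP3, a muscle LIM protein, read 18.61, 17.73 and 19.01 at the fattening ages, against 17.56, 16.59 and 17.38 at the growing ages (1.27 ± 0.36), and MYOZ2, a protein of the sarcomere's Z disc, stood at 1.19 ± 0.27. Of 11 fast fibre genes 1 was separated, ACTN3 (fast fibre alpha-actinin) at −0.44 ± 0.24, and the list median was −0.05. Among all genes 4.11% were lower without overlap.

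Glycolysis and glycogen genes had small differences. Of 16 measured genes 5 were below all growing values at each fattening age and 0 above, where 4.11% and 12.0% of all genes were. The median was −0.23, and −0.34 in the Piedmontese cross. Of the 16, 4 had a positive difference, where 7799 of all 11329 genes had one. At 20 months 7 of the 16 lay below every growing age, where 30.9% of all genes did. PKM (pyruvate kinase) read 18.45, 18.88 and 18.46 at the fattening ages, against 19.43, 19.15 and 19.10 at the growing ages (−0.63 ± 0.23). PHKG1, the catalytic subunit of muscle phosphorylase kinase, stood at −0.95 ± 0.27. None of the 16 passed limma's test. Oxidative phosphorylation genes had 2 of 29 higher, where 12.0% of all genes were, and a median of 0.12, against 0.16 for all genes.

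Among the lists with the lowest medians, immediate early genes came first. These transcription factors and regulators are switched on within minutes by growth factors, contraction or handling. Of 19 measured 3 were separated, all lower at the fattening ages, where 4.11% of all genes were. The list median was −0.89, and −0.67 in the Piedmontese cross. Of the 19, 17 had a negative difference, where 3530 of all 11329 genes had one. EGR1 read 9.77, 11.29 and 11.72, against 14.64, 14.05 and 13.35 (−3.09 ± 0.48, limma adjusted p = 0.08). FOS read 11.74, 12.01 and 12.65, against 14.72, 15.21 and 13.35 (−2.30 ± 0.44). IER5 overlapped because its 12-month value, 13.38, was already near the fattening values of 13.10 to 13.70. The mean level of the list was 11.12, 11.29 and 11.40 at the fattening ages, against 12.86, 12.25 and 11.47 at the growing ages, so 12 months stood closer to the fattening ages than to 3 months. How the tissue was taken at each age is not given in the sources used here, and its part in these values was not tested.

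Interferon-induced genes were lower too. Of 13 measured 5 were separated, all lower at the fattening ages, where 4.11% of all genes were. None of the 13 had a positive difference, where 7799 of all 11329 genes had one. The list median was −0.68, and −0.53 in the Piedmontese cross. ISG15, a ubiquitin-like protein, read 7.29, 7.45 and 6.55 at the fattening ages, against 9.61, 10.72 and 8.10 at the growing ages (−2.38 ± 0.54). MX1, an antiviral GTPase, read 6.63, 7.06 and 5.99, against 9.41, 9.65 and 7.48 (−2.29 ± 0.51). IDO1, an enzyme of tryptophan breakdown, stood at −1.63 ± 0.33. As with the immediate early genes, 12 months was the lowest growing age for ISG15, MX1 and IDO1. In 10 of the 13 genes 7 months was above 3 and 12 months, as it was in 18.5% of all genes. Within the shared slides 8 of the 13 were lower at 20 months than at every growing age, as were 11 of the 19 immediate early genes, where 30.9% of all genes were.

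Immune cell markers differed less. CIITA, the master regulator of class II antigen presentation, read 11.35, 11.80 and 10.70 at the fattening ages, against 12.82, 12.88 and 13.04 at the growing ages (−1.63 ± 0.29). The class II list of 11 genes had a median of −0.01, with 1 gene separated in each direction. Macrophage markers had 1 of 17 higher and a median of 0.12, lymphocyte markers 2 of 23 higher and 1 lower with a median of 0.06, and endothelial markers 0 of 17 higher and 1 lower with a median of −0.15. Fibroblast and matrix genes had 1 of 19 higher and a median of 0.15. Among all genes 12.0% were higher without overlap and 4.11% lower.

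Of the imprinted and fetal growth genes 3 of 11 were separated, all lower, where 4.11% of all genes were. The list median was −0.49, and −0.65 in the Piedmontese cross. MEST, a protein of the hydrolase family, read 7.41, 7.94 and 6.60 at the fattening ages, against 9.88, 9.15 and 8.01 at the growing ages (−1.70 ± 0.46). IGF2, a fetal growth factor, read 13.81, 14.09 and 13.54, against 15.85, 14.89 and 15.41 (−1.57 ± 0.28), but its other row stood at 0.57. H19, the noncoding RNA expressed from the neighbouring locus, stood at −1.15 ± 0.27. DLK1 and PEG3, other imprinted genes, differed by 0.02 and 0.07.

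**Figure D5:**
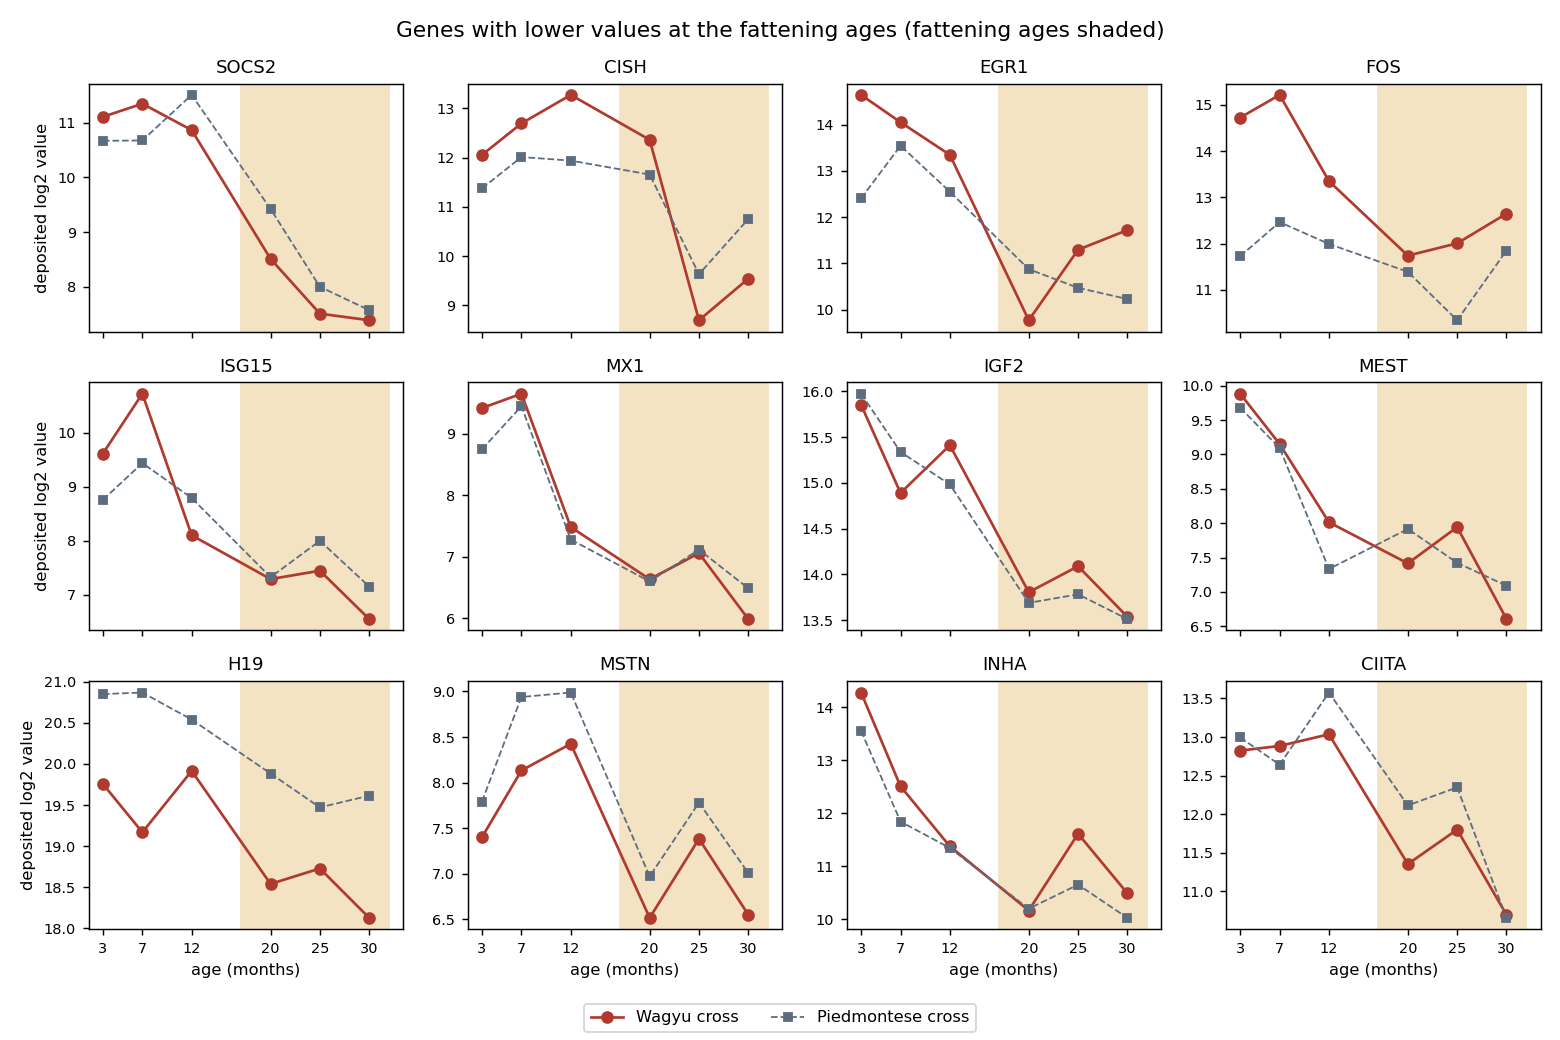
Deposited log2 values by age in months for 12 genes with lower values at the fattening ages, with the Wagyu cross as red circles and the Piedmontese cross as grey squares; fattening ages are shaded, each point is 1 column of 4 animals and the vertical scales differ. SOCS2 in the Wagyu cross lies at 7.39 to 8.51 in the shaded ages and at 10.86 to 11.34 before them, while CISH at 20 months, 12.36, lies within its growing range.

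Growth signalling genes other than SOCS2 were mixed. CISH, the other STAT5-induced inhibitor in the list, read 12.36 at 20 months, inside its growing range of 12.06 to 13.28, and 8.70 and 9.54 at 25 and 30 months (−2.48 ± 0.76). GHR, the growth hormone receptor, read 10.81, 11.72 and 11.71, against 10.39, 10.67 and 11.08 (0.70 ± 0.30). MSTN, the inhibitor of muscle growth, read 6.51, 7.38 and 6.55 at the fattening ages, against 7.40, 8.13 and 8.43 at the growing ages. The periods were separated by a margin of under 0.02, the difference was −1.17 ± 0.33 (limma adjusted p = 0.19), and the Piedmontese cross had −1.32. INHA, the inhibin alpha subunit, read 10.17, 11.61 and 10.49, against 14.27, 12.51 and 11.38, and so overlapped at 25 months (−1.96 ± 0.63).

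Several other genes lay among the 25 with the largest separated differences in each direction, a set chosen after the values were seen. ADIG (adipogenin, a small protein of adipocytes) stood at 3.21 ± 0.63 and CCDC3 (a protein secreted by adipocytes) at 2.44 ± 0.58. MAL2 (a protein of membrane traffic) and S100G (a calcium binding protein) stood at 3.31 ± 0.56 and 3.25 ± 0.60. TF (transferrin), CKB (brain-type creatine kinase) and FBP1 (fructose bisphosphatase of liver and other tissues) were at 2.75, 2.70 and 2.68, and each was highest at 25 months. TF and MAL2 were dim at the growing ages, at 3.68 to 3.95 and 2.03 to 2.82. They stood 0.66 and 1.84 above the growing mean at 20 months, and 3.80 and 4.05 above it at 25 and 30 months, on other slides. On the lower side, SFRP1 (a secreted inhibitor of WNT) was at −1.40, GPC3 (a glypican of growth control) at −1.39 and CCL21 (a chemokine of lymphoid tissue) at −1.51. All of these had a difference of the same sign in the Piedmontese cross.

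At the nerve junction, CHRNE, the adult subunit of the acetylcholine receptor, read 13.09, 13.84 and 13.02 at the fattening ages, against 11.23, 11.70 and 12.06 at the growing ages (1.65 ± 0.30). Of 13 Schwann cell and nerve genes 4 were higher and 2 lower without overlap, where 12.0% and 4.11% of all genes were. The list median was −0.14. Among chaperones 3 of 19 were higher, close to the 12.0% of all genes. CRYAB, a small heat shock protein of muscle, stood at 0.95 ± 0.27. MYL6B, a myosin light chain of slow and fetal muscle, read 18.92, 18.49 and 19.25, against 17.55, 17.39 and 18.17 (1.19 ± 0.28), where the Piedmontese cross had 0.21. Fetal contractile isoforms as a list did not rise. Of 10 measured, 1 was higher and 0 lower without overlap, and the list median was −0.27. A negative difference was seen in 6 of the 10, where 3530 of all 11329 genes had one.

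Blood genes varied inside both periods. HBB, the beta globin of red cells, read 8.71, 9.87 and 4.72 at the fattening ages, against 10.00, 5.74 and 4.45 at the growing ages, and HBA and HBG (other globin chains) had the same high and low ages. Their ranges within a period, 4.44 to 5.55, were among the 5 widest of all genes in each period. All 12 measured erythroid genes had a positive difference, as had 7799 of all 11329 genes. The list median of 0.65 (0.28 after quantile normalisation) was the next after the adipocyte, lipid synthesis and droplet turnover lists. Of the 12, 2 were higher without overlap, where 12.0% of all genes were. The list had a mean level of 6.76, 7.57 and 6.14 at the fattening ages, against 7.11, 5.76 and 5.75 at the growing ages. CATHL1, an antimicrobial peptide of neutrophils, read 1.94, 3.23 and 7.20, against 2.08, 3.05 and 3.62. At 20 months the globins were high and at 30 months low, and the part of blood content in the fat cell values was not tested.

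Steps between neighbouring ages differed in number. Genes that differed by over 1 log2 unit made up 3.46%, 4.91%, 4.58%, 7.60% and 4.22% of all genes for 3 to 7, 7 to 12, 12 to 20, 20 to 25 and 25 to 30 months. The step to 25 months crossed a change of slides, with 820 genes higher by over 1 and 41 lower, and the dimmest 10% of genes had a median step of 0.72, where that of the other steps ran between −0.12 and 0.30. After quantile normalisation the fat cell and lipid synthesis genes had medians of 2.16 and 1.24 between the periods, when the median of all genes was near 0. That scaling does not take out slide effects on single genes. As deposited, the list medians at 20 months, within slides, were 1.10 and 0.92, against −0.08 for all genes. At 25 and 30 months they were 2.76 and 1.72, against 0.26. The part of slides in these values was not tested.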

How the data were processed

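Total RNA of longissimus dorsi muscle was hybridised to two-colour Agilent arrays, extracted with Agilent Feature Extraction 8.5.1.1 per the submitters' processing notes. The authors deposited 1 value per row, cross and age; how arrays were scaled, animals combined and logarithms taken (their base) is not given in the sources used here. Deposited values were read as log2, since they run from −0.64 to 21.75, and because the highest exceed a 16-bit scanner's range differences are not given as folds. A deposited list gave arrays, slides and dyes: Cy3 and Cy5 each held 2 of the 4 animals of a postnatal column. The number of arrays limits the precision.

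Of 21475 rows 12276 carried 1 gene symbol and 9199 none, and 12269 matched the RefSeq gene table of ARS-UCD2.0, which changed 0. Where several rows named 1 of the 11329 genes, the row brightest on average over the 6 Wagyu columns stood for it. limma 3.58.1 (lmFit, eBayes) in R 4.3.3 compared the periods with 4 residual degrees of freedom. Wagyu minus Piedmontese values were compared between periods in the same way, with age as the block by construction, since both crosses of an age shared arrays. The Benjamini-Hochberg adjustment ran over every row and calls were made under 0.05; the procedure was checked on simulated data. P-values treat ages as independent samples.

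The comparison, the 41 gene lists and the tests were chosen with earlier results of these data known. Named were passing genes without overlap (up to 15 in each direction), in each list at most 3 members higher and 3 lower, MSTN, the 5 widest ranges in a period and the 5 largest steps; other names were chosen after their values were seen. Alternatives were other scalings, filters, priors, slide set as a term, both crosses in 1 fit, rows of a gene averaged, fixed ages (added later) and each age left out. Tables and figures were made with pandas 2.3.3, matplotlib 3.10.9 and numpy 2.4.6 under Python 3.11.15. No sequences were used here.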

Additional observations from a re-analysis of the deposited data

How the results depend on the processing

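In place of 3 rows, the comparison of the periods passed 5 after quantile normalisation, 0 with centred columns, 11 with the lowest 25% of rows left out, 25 with a trended robust prior, 9 with both crosses in 1 fit and 0 with the slide set as a term (837 at an unadjusted p under 0.05). With an age left out the count ran from 0 to 1704. It was 1704 without 20 months, 0 without 3, 7 or 30 months and 3 without 12 or 25 months. Rows of a gene averaged gave 3, and fixed ages, added after the data were seen, gave 5050. The 65 genes followed over the settings included those with the largest separated differences, and some settings leave a difference unchanged by construction. That 0 of these 65 turned direction over 907 pairs of gene and setting was thus largely fixed by their choice. Why the counts moved was not tested.

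For counts without overlap, all alternatives were chosen after the data were seen, and the share of all genes moved with the setting. The adipocyte count of 8 ran from 8 to 11 and the lipid synthesis count of 11 from 11 to 15 with an age left out, while the share of all genes higher, 12.0%, ran up to 37.9% without 20 months, where the 11 and the 15 stood, and was 29.0% without 12 months. The share of all genes lower was 4.11%, 8.69% after quantile normalisation, 30.9% for 20 months alone and 5.05% to 8.50% with an age left out. Against these, interferon-induced genes had 8 lower for 20 months alone and 5 to 9 with an age left out (9 without 12 months). Immediate early genes had 5 after quantile normalisation, 11 for 20 months alone and 3 to 10 with an age left out. That count was 10 without 12 months, 7 without 25 months and 6 without 30 months. Glycolysis had 5 to 9 (9 without 7 months). The adipocyte count of Wagyu minus Piedmontese values, 8, was 5 after quantile normalisation and 3 with centred columns, where 4.64% and 3.72% of all genes were separated, against 22.6% as deposited.

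For the crosses by period, the paired fit on the difference within an age passed 0 rows and the fit with no replicate block 0 as well, with 2451 and 110 rows at an unadjusted p under 0.05. No paired analysis of fattening against growing ages was possible because their replicate numbers only order the ages. With 3 columns in each period, dim genes at 25 and 30 months cannot be told apart from a change of slides.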

Other observations

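Over all 11329 genes, 4 had fattening values above all growing values in the Wagyu cross and below them in the Piedmontese cross: HERC2, S1PR5, BVES and GPR52. The Wagyu differences were 0.24, 0.19, 0.28 and 0.29, and those of the Piedmontese cross −0.13, −0.29, −0.09 and −0.24. The median of all genes was itself 0.16 in the Wagyu cross and −0.09 in the Piedmontese cross. By limma the Wagyu differences had adjusted p = 0.62, 0.68, 0.57 and 0.54. After quantile normalisation they were 0.19, 0.12, 0.18 and −0.16, so that GPR52 turned direction. For the Wagyu change minus the Piedmontese change, limma gave adjusted p = 0.44 in each of the 4 genes. That fit tests whether the changes differ, not whether their signs do. The 4 genes were picked by their opposite directions.

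XIST, the RNA of the inactive X chromosome, lay between 14.14 and 14.62 in the 6 Wagyu columns, with a difference of 0.02 between the periods.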
